A study of Mus musculus with 9 samples.

Results

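The mitochondrial genome transcripts are the genes of the circular genome that mitochondria carry. They were taken as every gene of the deposited table whose name begins with mt-, a rule that uses no measured value. It gave 37 of 45706 genes: 13 protein-coding genes, 2 ribosomal RNA (rRNA) genes and 22 transfer RNA (tRNA) genes, all on chromosome M of GRCm38. Lung RNA came from BALB/c females, 4 to 6 weeks of age, with 4T1 cells, a mouse mammary carcinoma line, placed in the right flank. On days 7 and 14 after engraftment they were given phosphate-buffered saline (PBS), or anti-PD1, an antibody that binds the inhibitory T cell receptor PD1, or nanocapsules of that antibody. Lungs were taken on day 21. Every group, PBS included, carried the 4T1 graft, and a lung without one was not analysed here. The stated 150 µg per mouse stands beside the nanocapsule in the labels, and it is not clear from them if the free antibody was dosed alike. There were 3 lung libraries per group, and each library is called a lung here. The labels do not name the animals, so p-values measure only the spread between these samples, which may be technical.

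Mitochondria keep a small genome whose protein-coding genes all encode subunits of the respiratory chain and of ATP synthase, while most subunits of those complexes come from nuclear genes. The mitochondrial polymerase copies almost the whole of each strand into long precursors, and tRNAs that lie between the genes are cut out to free the mRNAs and rRNAs. Most of the mRNAs then receive short poly(A) tails, and mRNA levels after this step depend on how fast each RNA decays. In lung, type 2 cells of the alveoli are rich in mitochondria, whereas mature neutrophils, which rely mainly on glycolysis, carry few.

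Values are TPM, a transcript abundance per length that sums to the same total in every library. TPM keep no read depth, so the depth was unknown and no counting interval can be given. A TPM share is a part of a fixed total, so a share falls when other RNAs take more. In whole lung, fewer cells of a type and less RNA per cell cannot be told apart. The libraries were made from RNA captured on poly-T beads, so RNAs with short or no poly(A) tails may be captured in part. In each library 12194 to 13407 genes were at 1 TPM or more. The lungs held the lung transcripts Sftpc (342.9 to 3410 TPM) and Scgb1a1 (2462 to 9961 TPM) throughout. The marker genes mt-Co1 and mt-Nd1 were among the abundant transcripts of every library, with 4341 to 11658 TPM and 1598 to 4829 TPM. PBS 2 stood apart from its group: it had the highest share of the neutrophil transcripts S100a8 and S100a9 of the PBS lungs, 16.7% against 12.7% and 12.1%, and the lowest share of mitochondrial transcripts. The protein-coding share and the median difference of the protein-coding genes against PBS are therefore given with and without PBS 2. Most other values that rest on PBS include it. Nanocapsule 1 also differed from its group. Its mt- genes took 3.30% of TPM against 2.37% and 2.22%, and Sftpc was at 3410 TPM against 628.6 and 913.5 TPM.

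Of the 37 genes, all 13 protein-coding genes and both rRNA genes were above 1 TPM in all 9 libraries. Of the 22 tRNA genes, 21 were listed at 0 in every library. The exception was mt-Ts1, the gene of a serine tRNA on the minus strand, which was at 6.15, 0 and 5.49 TPM with anti-PD1, at 0, 0 and 3.80 TPM with PBS and at 0, 4.43 and 0 TPM with the nanocapsule. It was present in 4 of 9 libraries with no order among the groups. Its last 3 bases, in capitals, are shared on the opposite strand with the end of mt-Co1, the gene with the highest level.
mt-Ts1, chrM:6870-6938, minus strand: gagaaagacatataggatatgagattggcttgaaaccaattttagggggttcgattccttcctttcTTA
The tRNA genes are shorter than the fragments of a usual library, and the values of this class are uncertain for that reason. Strand was not given in the sources used here.

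The protein-coding genes made up nearly all of the mitochondrial signal. Their share of all TPM was 4.08%, 2.14% and 3.67% with PBS, 4.71%, 5.48% and 5.23% with anti-PD1 and 3.05%, 2.10% and 2.05% with the nanocapsule. Every anti-PD1 lung lay above every other lung, while PBS 2 lay within the range of the nanocapsule lungs. The means were 3.29% ± 1.02 (PBS), 5.14% ± 0.391 (anti-PD1) and 2.40% ± 0.561 (nanocapsule; SD, n = 3 each). The anti-PD1 mean was 1.56 times the PBS mean, and the nanocapsule mean was 0.729 times the PBS mean and 0.467 times the anti-PD1 mean. Two-sided exact permutation tests gave p = 0.1 for anti-PD1 against PBS, p = 0.2 for nanocapsule against PBS and p = 0.1 for nanocapsule against anti-PD1. The smallest p that 3 lungs against 3 can give is 0.1. Without PBS 2, the difference of means from PBS was 1.27 percentage points for anti-PD1 (1.85 with it) and -1.47 for the nanocapsule (-0.893 with it). Neither comparison then overlapped, and both had an exact permutation p of 0.2, the smallest possible without that lung.

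The rRNA genes showed no such separation. mt-Rnr1 encodes the RNA of the small subunit of the mitochondrial ribosome and mt-Rnr2 that of the large subunit. Together they took 0.299%, 0.234% and 0.231% of TPM with PBS, 0.293%, 0.274% and 0.253% with anti-PD1, and 0.249%, 0.264% and 0.166% with the nanocapsule. The 3 groups overlapped (exact permutation p = 0.6, 0.6 and 0.2 for anti-PD1 against PBS, nanocapsule against PBS and nanocapsule against anti-PD1). The lowest value was that of nanocapsule 3. mt-Rnr1 was at 1329 TPM on average in PBS, 1406 TPM in anti-PD1 and 1225 TPM in nanocapsule lungs, and mt-Rnr2 at 1218, 1330 and 1036 TPM. The ratio of mt-Rnr2 to mt-Rnr1 was 0.896 to 0.934 with PBS, 0.931 to 0.969 with anti-PD1 and 0.781 to 0.991 with the nanocapsule, with overlap in each comparison.

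The ratio of summed protein-coding to summed rRNA TPM sets the 2 classes against each other within a library, so that the total cancels. It was computed after the values had been seen. It was 13.6, 9.13 and 15.9 with PBS, 16.1, 20.0 and 20.6 with anti-PD1 and 12.3, 7.97 and 12.4 with the nanocapsule. All anti-PD1 lungs were above all other lungs, and PBS and nanocapsule lungs overlapped (exact permutation p = 0.1, 0.4 and 0.1, in the order given for the rRNA share). Among 12 tested genes whose RNA mostly lacks a poly(A) tail, mainly replication histones, the median log2 difference was -0.13 for anti-PD1 against PBS and 0.16 for nanocapsule against anti-PD1. The part of RNA capture in this ratio was not tested.

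**Figure D1:**
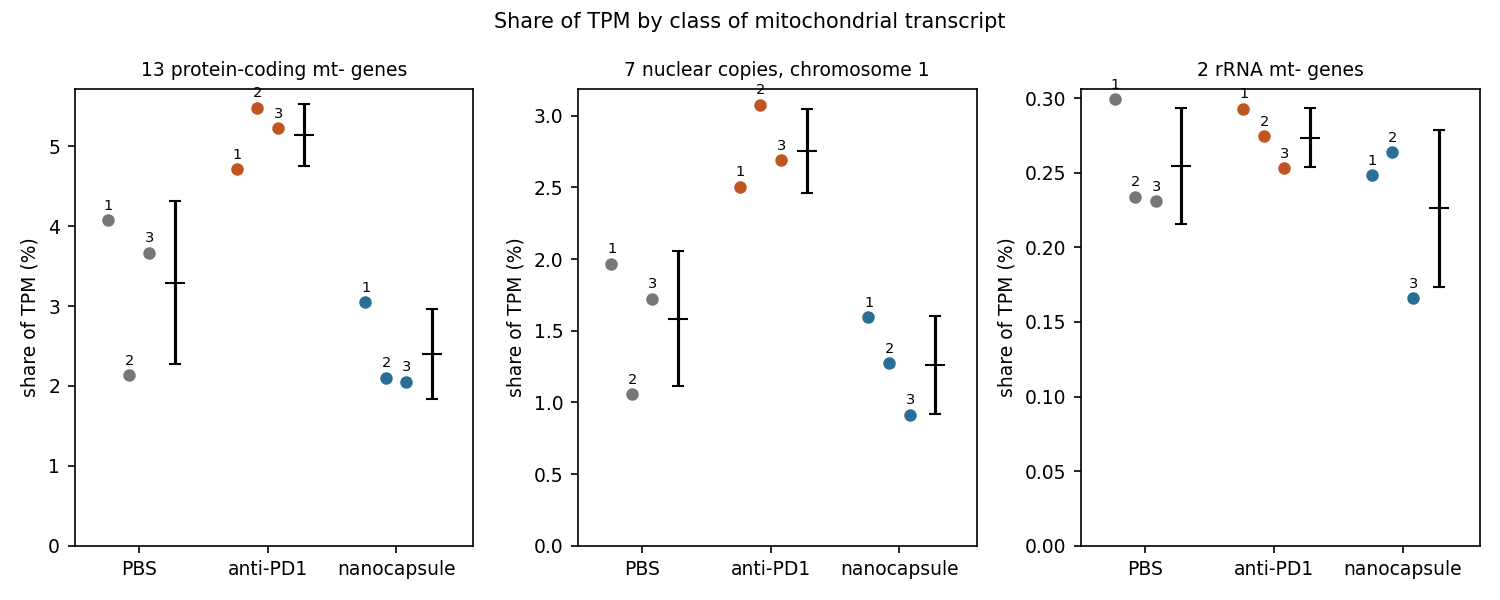
Share of TPM (%, each panel from 0) of the 13 protein-coding mt- genes, of the 7 nuclear copies on chromosome 1 described further on, and of the 2 rRNA genes. Coloured points are single lungs marked with their replicate number, and black bars are the mean ± SD of 3 lungs. The anti-PD1 lungs lie above all others in the left and middle panels, and the groups overlap in the right one.

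Levels per length differed widely between genes that start as parts of the same precursor. mt-Co1, the catalytic core subunit of cytochrome c oxidase (complex IV), was highest in 9 of 9 libraries. It was at 9362, 4902 and 8524 TPM with PBS, 9954, 11658 and 11147 TPM with anti-PD1 and 7025, 4341 and 4595 TPM with the nanocapsule. All anti-PD1 lungs were above all PBS and nanocapsule lungs. Over all 9 libraries the mean order was mt-Co1, mt-Atp6, mt-Co3, mt-Cytb, mt-Co2, mt-Nd1, mt-Nd4l, mt-Nd4, mt-Nd2, mt-Nd6, mt-Nd5, mt-Atp8 and mt-Nd3. The first place and the last 5 were the same in 9 of 9 libraries. In the middle, neighbours changed places: mt-Co2 ranged from place 3 to place 7 and mt-Nd4l from 5 to 8, so these neighbours were not ordered beyond their spread.

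By complex, 7 genes encode membrane subunits of NADH dehydrogenase (complex I), which passes electrons from NADH to ubiquinone. They made up 32.7% ± 1.76 of the protein-coding mitochondrial TPM with PBS, 34.7% ± 0.754 with anti-PD1 and 33.1% ± 1.79 with the nanocapsule (SD, n = 3 each). The 3 genes of complex IV, mt-Co1, mt-Co2 and mt-Co3, made up 42.9% ± 0.568, 40.3% ± 0.300 and 42.3% ± 0.741. The anti-PD1 lungs ranged from 40.1% to 40.6% in this share and lay below all other lungs, which ranged from 41.7% to 43.6%. mt-Cytb, cytochrome b of complex III, took 9.39%, 9.89% and 9.16% on average, and the ATP synthase genes mt-Atp6 and mt-Atp8 (complex V) took 15.0%, 15.1% and 15.5%. mt-Co1 alone took 23.0% to 23.2% with PBS, 21.1% to 21.3% with anti-PD1 and 20.7% to 23.1% with the nanocapsule.

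The nuclear genome holds copies of mitochondrial sequence that bear on these levels. Every mt- transcript was compared with all other transcripts of the GENCODE M21 annotation on GRCm38, and a copy was a gene that matched at 95% identity or more over at least 100 bases. There were 11 such genes, of which 7 lay side by side on the minus strand at chr1:24611535-24616197, a block of 4663 bases annotated as unprocessed pseudogenes. The 7 genes of the block match genes within chrM:6390-11042 (a span of 4653 bases), from the end of mt-Co1 to the middle of mt-Nd4. The bases between these genes were not compared. Over the aligned bases, 5 of the 7 are identical to the mitochondrial gene. The first 60 bases of mt-Co2, the copper-binding subunit of complex IV, and of its copy Gm28661 show the identity.
mt-Co2, chrM:7013-7072, plus strand: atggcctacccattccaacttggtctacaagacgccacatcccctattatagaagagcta
Gm28661, chr1:24615506-24615565, minus strand: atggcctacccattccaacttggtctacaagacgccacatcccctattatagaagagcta
Each of the other 2 copies has a single substitution. In Gm29216, the copy of the end of mt-Co1, it is A1066T, counted from base 1 of the mt-Co1 transcript and written with the mitochondrial base first; it is in capitals.
mt-Co1, chrM:6390-6449, plus strand: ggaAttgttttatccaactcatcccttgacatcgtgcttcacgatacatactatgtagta
Gm29216, chr1:24616129-24616188, minus strand: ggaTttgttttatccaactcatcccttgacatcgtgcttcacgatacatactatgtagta
In Gm28438, the copy of the complex I gene mt-Nd3, it is T3C, counted in the same way.
mt-Nd3, chrM:9459-9518, plus strand: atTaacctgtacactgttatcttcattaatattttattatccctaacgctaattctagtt
Gm28438, chr1:24613060-24613119, minus strand: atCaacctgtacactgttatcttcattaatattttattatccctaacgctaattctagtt
The annotation describes the C57BL/6J strain, and the bases that BALB/c mice carry at these positions were not analysed here.

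Reads from identical stretches cannot be assigned to one of the 2 genes, so the levels of both members of a pair are uncertain. The deposited values split them unevenly, as shown by the copy's percent of its pair, with the copy weighted by length. Gm28661 held 58.4% to 65.8% of the TPM of its pair with mt-Co2, Gm28437 held 42.0% to 53.5% of its pair with mt-Co3, and Gm10925 held 36.5% to 49.2% of its pair with mt-Atp6. Gm29216, which matches 483 bases of mt-Co1, held 6.28% to 15.8%. Gm10222 held 1.19% to 11.9% of its pair with mt-Nd4l and Gm28439 0.321% to 1.17% of its pair with mt-Nd4. At the other end, Gm28438 held 81.4% to 96.2% of its pair with mt-Nd3. The 3 copies on chromosome 2 and the 1 on chromosome 13 were at no more than 1.65 TPM in any library.

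**Figure D2:**
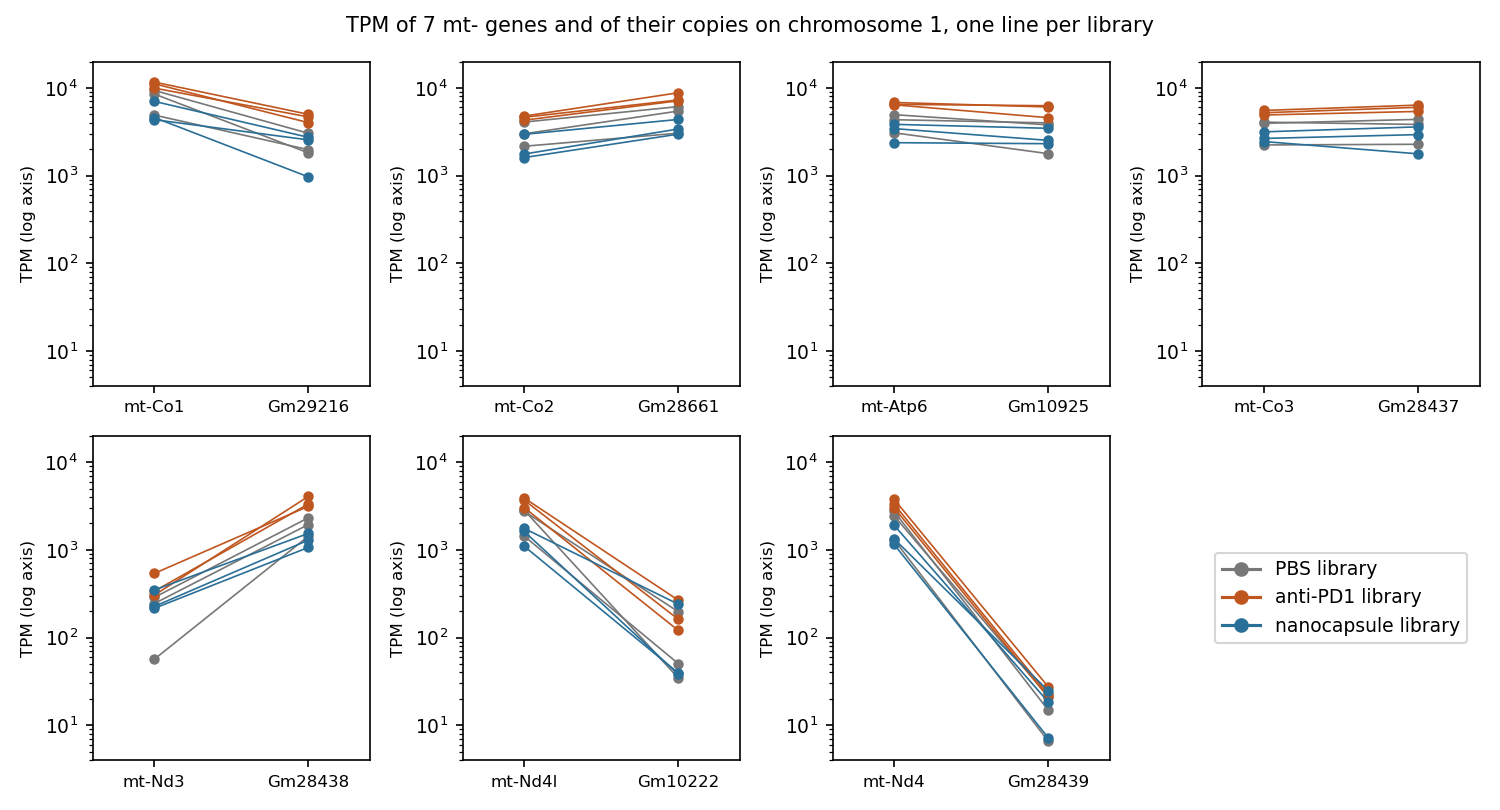
TPM on a log axis of 7 mt- genes (left of each panel) and of their copies on chromosome 1 (right), with 1 line per library coloured by group. The lines run nearly level for mt-Co2, mt-Atp6 and mt-Co3, rise toward the copy for mt-Nd3, and drop steeply for mt-Nd4l and mt-Nd4.

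Counting the block changed how large the mitochondrial signal was, more than how it differed between groups. The 7 copies took 1.97%, 1.06% and 1.72% of TPM with PBS, 2.50%, 3.08% and 2.69% with anti-PD1 and 1.60%, 1.27% and 0.915% with the nanocapsule. As with the mt- genes, every anti-PD1 lung was above every other lung (exact permutation p = 0.1 against PBS and p = 0.1 for nanocapsule against anti-PD1). The mt- genes and all 11 copies together took 5.13% ± 1.52, 8.17% ± 0.662 and 3.89% ± 0.905 of TPM in the PBS, anti-PD1 and nanocapsule lungs (SD, n = 3 each). The anti-PD1 mean of this sum was 1.59 times the PBS mean, and the nanocapsule mean was 0.476 times the anti-PD1 mean.

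The order of the genes did change. With each copy's TPM, weighted by length, added to its mt- gene, mt-Co1, mt-Co2, mt-Atp6 and mt-Co3 came close together, at means of 8894, 8621, 8484 and 7851 TPM over the 9 libraries. mt-Nd3, which was last in 9 of 9 libraries with a mean of 284.2 TPM, reached place 8 with 2501 TPM. The lowest place then belonged to mt-Atp8 in 9 of 9 libraries. The share of complex IV became 49.2% ± 0.821 in the PBS, 47.2% ± 0.767 in the anti-PD1 and 48.7% ± 1.31 with the nanocapsule, and here the anti-PD1 lungs (46.5% to 48.1%) overlapped with the nanocapsule lungs (47.2% to 49.7%).

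**Figure D3:**
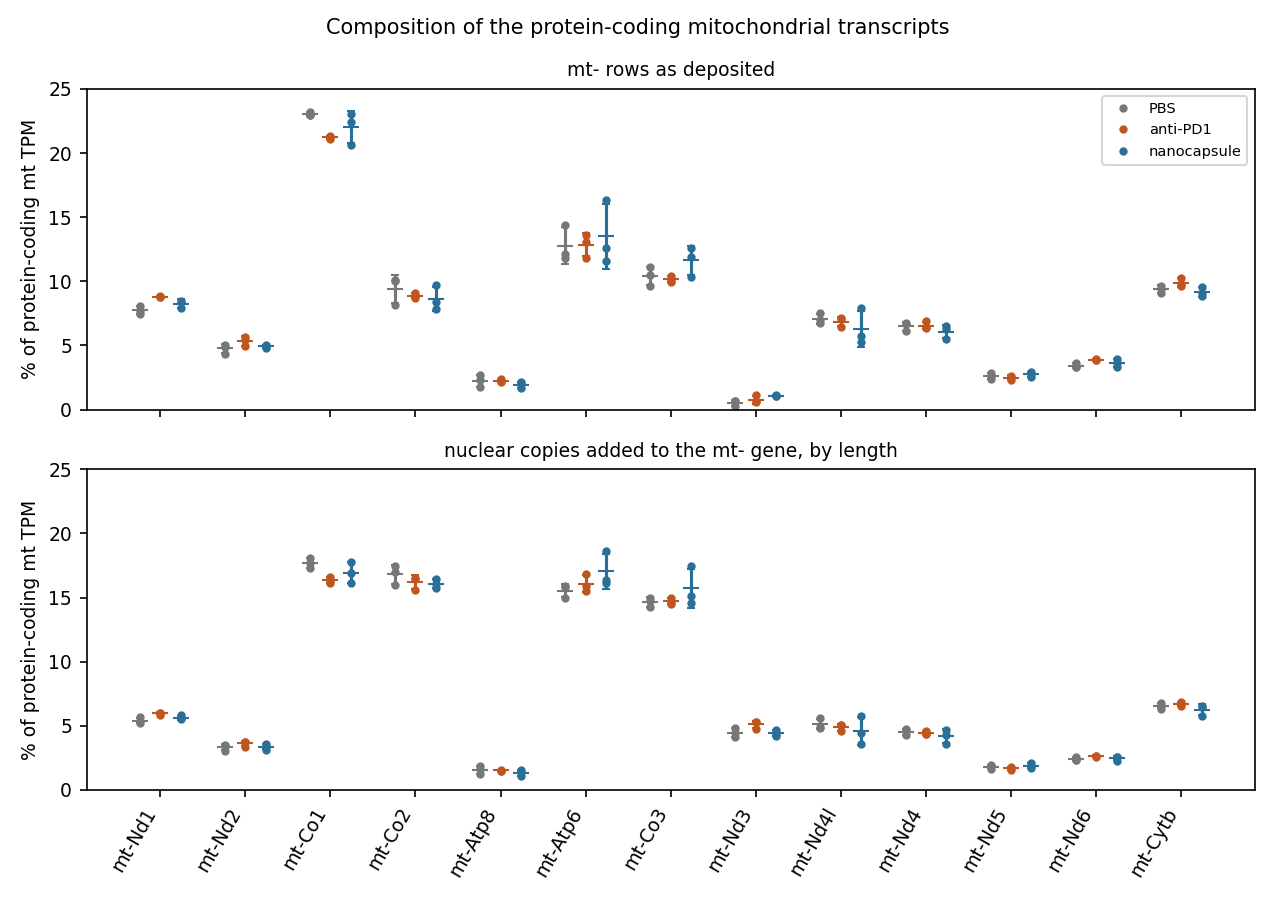
Percent of the summed protein-coding mitochondrial TPM taken by each gene, in genome order, for the mt- genes as deposited (top) and with the nuclear copies added by length (bottom). Points are single lungs and bars the mean ± SD of 3 lungs per group. mt-Co1 stands alone at the top as deposited, and mt-Co1, mt-Co2, mt-Atp6 and mt-Co3 stand close together once the copies are added.

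Some genes share bases on one strand, and the deposited values can differ even between genes of a single mRNA. mt-Atp8 and mt-Atp6 are translated from one bicistronic mRNA and share 43 bases (chrM:7927-7969), and mt-Nd4l and mt-Nd4 share 7 bases (chrM:10167-10173). The shared bases are in capitals.
mt-Atp8 and mt-Atp6, chrM:7907-7989, plus strand: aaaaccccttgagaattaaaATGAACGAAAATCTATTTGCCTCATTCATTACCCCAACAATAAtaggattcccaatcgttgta
mt-Nd4l and mt-Nd4, chrM:10147-10193, plus strand: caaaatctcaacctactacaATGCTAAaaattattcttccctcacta
The TPM ratio of mt-Nd4l to mt-Nd4 was 0.919 to 1.22 over the 9 libraries, close to equal levels per length. The ratio of mt-Atp8 to mt-Atp6 was 0.103 to 0.228, and 0.0596 to 0.119 with the copy of mt-Atp6 added. The groups overlapped in all of these ratios. Reads in shared bases can be split between the genes, so both ratios are uncertain.

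mt-Nd6, a complex I subunit, is the 1 protein-coding gene on the minus strand and so belongs to the other precursor. Its share of the protein-coding mitochondrial TPM was 3.66%, 3.29% and 3.32% with PBS, 3.92%, 3.89% and 3.88% with anti-PD1 and 3.33%, 3.94% and 3.65% with the nanocapsule. The anti-PD1 values were the most alike and lay above all PBS values, with nanocapsule 2 above them (exact permutation p = 0.1 for anti-PD1 against PBS, p = 0.4 for the other 2 comparisons). In TPM it was at 1138 ± 401 in PBS, 2004 ± 143 in anti-PD1 and 864 ± 136 in nanocapsule lungs (SD, n = 3 each), so it moved with the plus-strand genes by value. mt-Nd6 shares 14 bases with mt-Nd5 on the opposite strand, and without a known strand setting, reads of the plus-strand precursor cannot be told apart from its own. The poly(A) tail of mt-Nd6 RNA, and so its capture on poly-T beads, was not analysed here.

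The first comparison asked how lungs of mice given the free antibody differed from PBS lungs. All 13 protein-coding genes were higher by value with anti-PD1, with a median log2 difference of 0.70, and none passed the test. Log2 differences here are of TPM + 1, fitted with limma over all 9 lungs. Over all 13248 genes tested the median was 0.04, 56.9% were higher, and 0.00755% were called at an adjusted p under 0.05. Of the 16 tested mt- genes, 0 were called, and 12 of the 13 protein-coding genes had an unadjusted p under 0.05, against 8.48% of all genes in the same direction. In all 13 every anti-PD1 lung lay above every PBS lung, which held for 12.1% of all tested genes. The genes share precursors and libraries, so they are not independent.

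The complex I genes spanned the widest range in this comparison. mt-Nd1, which lies in the membrane arm next to the ubiquinone site, was at 3305, 1598 and 2812 TPM with PBS and 4162, 4829 and 4583 TPM with anti-PD1, which differed by 0.88 on the log2 scale (SE 0.26, limma adjusted p = 0.213). mt-Nd2 had 0.86, mt-Nd6 0.88, mt-Nd4 0.70, mt-Nd4l 0.65 and mt-Nd5 0.62. mt-Nd3 had the largest difference, 1.26 (SE 0.52, limma adjusted p = 0.271). Its TPM were 286.6, 56.6 and 244.1 in PBS against 538.4, 304.4 and 337.4 in anti-PD1, so PBS 2 set much of the size. Over the fits without 1 library the lowest difference was 0.52. With its copy added the difference was 0.93 (SE 0.21, limma adjusted p = 0.210). In complex III, mt-Cytb had a log2 difference of 0.77. In complex IV, mt-Co1 had the smallest of the 13, 0.58 (SE 0.26, limma adjusted p = 0.304), beside 0.61 for mt-Co2 and 0.66 for mt-Co3. The complex V genes mt-Atp6, which forms part of the proton channel, and mt-Atp8 were at 0.70 and 0.72. mt-Atp6 had the tightest anti-PD1 values, 6415, 6498 and 6822 TPM, against 4952, 3077 and 4338 TPM in PBS.

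The rRNA genes differed from PBS by 0.09 (mt-Rnr1, SE 0.20, limma adjusted p = 0.863) and 0.13 (mt-Rnr2, SE 0.15, limma adjusted p = 0.690). PBS 2 set much of the size of the protein-coding difference. Without it, the median of the 13 genes was 0.46 with limma adjusted p from 0.570 to 0.755, and the median of all tested genes was -0.01.

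The second comparison set the nanocapsule lungs against PBS lungs. Here 12 of the 13 protein-coding genes were lower by value, with a median log2 difference of -0.38, against a median of -0.11 and 71.2% lower over all tested genes. None of the 16 mt- genes was called, with 0.00755% called over all genes. An unadjusted p under 0.05 was reached by 2 of them, mt-Atp8 (log2 difference -0.62, SE 0.25, limma adjusted p = 0.459) and mt-Nd4l (-0.61, SE 0.27, limma adjusted p = 0.474), against 8.92% of all genes in that direction. In none of the 13 did the nanocapsule lungs all lie below the PBS lungs, a separation that 11.9% of all tested genes showed. mt-Co2 (-0.55), mt-Nd4 (-0.52), mt-Co1 (-0.49) and mt-Cytb (-0.46) followed, and mt-Co3 was nearest to PBS among the lower genes, at -0.27. mt-Rnr1 was at -0.15 and mt-Rnr2 at -0.24.

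mt-Nd3 was the exception, at 348.7, 226.4 and 215.3 TPM with the nanocapsule against 286.6, 56.6 and 244.1 TPM in PBS, which differed by 0.69 on the log2 scale (SE 0.52, limma adjusted p = 0.652). This sign rested on PBS 2 and on the split with the copy: the difference was -0.04 without PBS 2 and -0.40 with Gm28438 added. Without PBS 2 the median of the 13 genes was -0.72 (limma adjusted p from 0.167 to 0.947), and without PBS 1 it was -0.21. Without nanocapsule 1 it was -0.57.

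Set against lungs given the free antibody, the nanocapsule lungs showed the widest differences. All 13 protein-coding genes were lower by value, with a median log2 difference of -1.21, against a median of -0.17 and 70.8% lower over all tested genes. None of the 16 mt- genes was called, with 0.106% called over all genes: 14 genes, of which 9 were higher (0.0679%) and 5 lower (0.0377%). Another scaling changed the split of calls, to 19 higher and 2 lower by median-of-ratios, 23 and 25 when scaled to genes outside the mitochondrial genome, and 58 and 21 without S100a8 and S100a9. For 12 protein-coding genes the limma adjusted p lay between 0.0522 and 0.0881, and for mt-Nd3 it was 0.478. These 12, and mt-Rnr2 of the 2 rRNA genes, had an unadjusted p under 0.05, against 21.0% of all genes lower. In the same 12 every nanocapsule lung lay below every anti-PD1 lung, which 24.6% of all tested genes showed. This comparison and the first use the same anti-PD1 lungs.

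The largest difference was that of mt-Atp8, a small membrane subunit of ATP synthase, at 606.7, 354.6 and 442.6 TPM with the nanocapsule and 1040, 1299 and 1142 TPM with anti-PD1 (log2 difference -1.34, SE 0.25, limma adjusted p = 0.0522). mt-Nd4l, at 1755, 1100 and 1623 TPM against 3032, 3898 and 3690 TPM, had -1.27 (SE 0.27, limma adjusted p = 0.0582). mt-Nd2, mt-Cytb, mt-Nd4, mt-Nd6 and mt-Nd1 lay within -1.24 and -1.21. mt-Co1 had -1.07, mt-Atp6 -1.06, mt-Nd5 -0.97 and mt-Co3 -0.93. The rRNA genes were nearer, mt-Rnr1 at -0.24 (SE 0.20, limma adjusted p = 0.439) and mt-Rnr2 at -0.37 (SE 0.15, limma adjusted p = 0.154). mt-Rnr2 nevertheless separated, at 1125, 1157 and 825.6 TPM against 1418, 1350 and 1221 TPM.

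The copies moved with their mitochondrial genes in this comparison, and 1 of them passed the test. Gm28438, the copy of mt-Nd3, fell by 1.44 on the log2 scale (SE 0.20, limma adjusted p = 0.0393), from 3137, 4067 and 3331 TPM with anti-PD1 to 1539, 1291 and 1066 TPM with the nanocapsule. It is 1 of the 5 genes called lower over the whole table. The call was lost in the 6 fits without 1 anti-PD1 or nanocapsule lung (adjusted p 0.0569 to 0.163), and by median-of-ratios scaling (adjusted p = 0.0564). mt-Nd3 itself had -0.57 (SE 0.52), and the pair added together had -1.33 (SE 0.21, limma adjusted p = 0.0506), close to the other genes. Gm29216 had -1.26, Gm28437 -1.15, Gm28661 -1.12 and Gm10925 -1.03, with limma adjusted p from 0.0674 to 0.0885. Gm10222 (-1.27, SE 0.76, limma adjusted p = 0.288) and Gm28439 (-0.61, SE 0.44, limma adjusted p = 0.372) were lower by value only. In both of these the groups overlapped. With the copies added, all 13 sums had adjusted p between 0.0506 and 0.0879, and none was called.

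**Figure D4:**
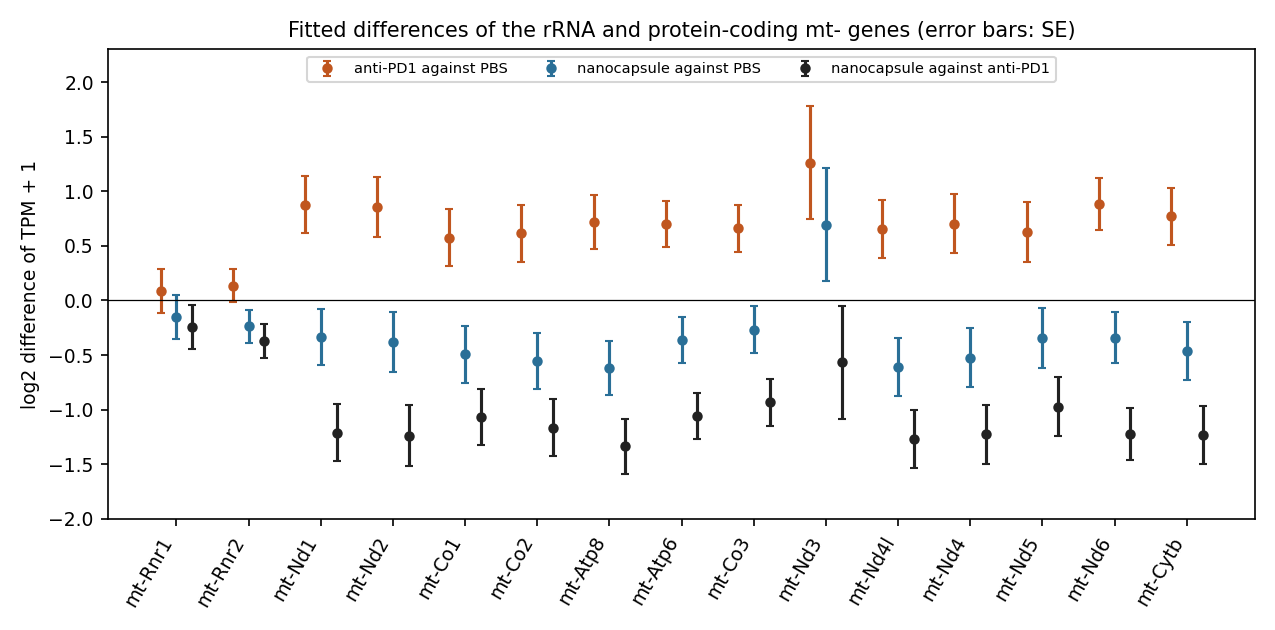
Fitted log2 differences of TPM + 1 (points) with their SE (bars) for the 2 rRNA genes and the 13 protein-coding genes in genome order, in the 3 comparisons. The protein-coding genes lie between 0.58 and 1.26 for anti-PD1 against PBS and between -1.34 and -0.57 for nanocapsule against anti-PD1, while the rRNA genes lie between -0.37 and 0.13 in all 3.

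The direction of the protein-coding median held under each scaling tried. By median-of-ratios it was 0.65, -0.26 and -1.04 in the order of the comparisons, and after rescaling to genes outside the mitochondrial genome it was 0.73, -0.39 and -1.25. When S100a8 and S100a9 were left out of the total it was 0.66, -0.34 and -1.13. Median-of-ratios scaling brought the median of all tested genes for nanocapsule against anti-PD1 from -0.17 to -0.03.

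Nuclear genes of the same complexes differed much less. Of 76 nuclear subunits of complexes I to V, 74 were higher in anti-PD1 than in PBS lungs (median 0.20), 44 higher and 32 lower in nanocapsule than in PBS lungs (median 0.03), and 70 lower in nanocapsule than in anti-PD1 lungs (median -0.18). The medians of all tested genes were 0.04, -0.11 and -0.17 and the shares 56.9% higher, 71.2% lower and 70.8% lower, so that the list lay at the median of all genes for nanocapsule against anti-PD1. By median-of-ratios scaling the list medians were 0.15, 0.15 and -0.01, and for nanocapsule against anti-PD1 those of complexes II and IV turned to 0.12 and 0.04. Without PBS 2 the nanocapsule against PBS median turned to -0.06. None of the 76 was called. Without PBS 2, 6 were called for nanocapsule against anti-PD1, beside 960 of all 13168 genes tested in that fit. That lung enters the comparison only through the shared spread. With all lungs, 27 of the 76 had an unadjusted p under 0.05 as higher in anti-PD1 than in PBS lungs, against 8.48% of all genes. As lower in nanocapsule than in anti-PD1 lungs, 22 of the 76 reached it, against 21.0%. The largest single difference was that of Ndufa5, a complex I accessory subunit, at 43.9, 31.6 and 36.6 TPM in PBS and 59.8, 71.7 and 69.0 TPM in anti-PD1 lungs (0.83, SE 0.19, limma adjusted p = 0.211). Against anti-PD1, the nanocapsule lungs had lower Ndufab1, the mitochondrial acyl carrier protein (-0.62, SE 0.14, limma adjusted p = 0.0674), and lower Cox7c of complex IV (-0.48, SE 0.11, limma adjusted p = 0.0665). In summed TPM the nuclear subunits took 1.25% ± 0.106, 1.42% ± 0.0382 and 1.25% ± 0.0497 in PBS, anti-PD1 and nanocapsule lungs (SD, n = 3 each), against the 3.29%, 5.14% and 2.40% of the mitochondrial genes.

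The machinery that makes and reads mitochondrial RNA showed small differences, with no gene called in any list. Without PBS 2, calls for nanocapsule against anti-PD1 included 9 ribosomal protein, 3 membrane, 1 RNA processing and 1 citric acid cycle gene. In that fit 960 of all 13168 tested genes were called. Of 79 mitochondrial ribosomal protein genes, 71 were higher in anti-PD1 than in PBS lungs (median 0.21), and 75 were lower in nanocapsule than in anti-PD1 lungs (median -0.26, and -0.09 by median-of-ratios scaling), where Mrpl42 had -0.51 (SE 0.10, limma adjusted p = 0.0557) and Mrpl38 -0.56 (SE 0.11, limma adjusted p = 0.0567). These counts stand beside the 56.9% higher and 70.8% lower of all tested genes. The 14 genes of mitochondrial transcription and replication had medians of 0.08, -0.11 and -0.22, close to those of all tested genes; Polg, the catalytic subunit of the mitochondrial DNA polymerase, was at -0.45 for nanocapsule against anti-PD1. Among 29 genes of mitochondrial RNA processing, modification and decay the medians were 0.14, -0.10 and -0.20, with Rexo2, an exonuclease for short mitochondrial RNAs, at -0.60 and Trmu, which modifies mitochondrial tRNAs, at -0.65 in that same comparison. By median-of-ratios scaling the nanocapsule against PBS median of this list was 0.00, and that of the ribosomal protein list turned from -0.04 to 0.07. The 9 tested regulators of mitochondrial biogenesis had medians of -0.01, -0.14 and -0.11. The first of these turned to 0.01 after rescaling to genes outside the mitochondrial genome, and the last to 0.05 by median-of-ratios scaling. The 17 genes of the citric acid cycle had 0.09, -0.10 and -0.17, and for nanocapsule against anti-PD1 Mdh2, mitochondrial malate dehydrogenase, went the other way at 0.49 (SE 0.11, limma adjusted p = 0.0661). The 19 genes of mitochondrial membranes and transport had 0.15, -0.06 and -0.23. By median-of-ratios scaling the nanocapsule against PBS medians of the citric acid cycle and membrane lists turned to 0.01 and 0.06. For nanocapsule against anti-PD1 this scaling took the citric acid cycle median to 0.00 and shrank 3 other medians by over 1.5 times, to -0.08 for transcription and replication, -0.09 for RNA processing and -0.07 for membranes.

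**Figure D5:**
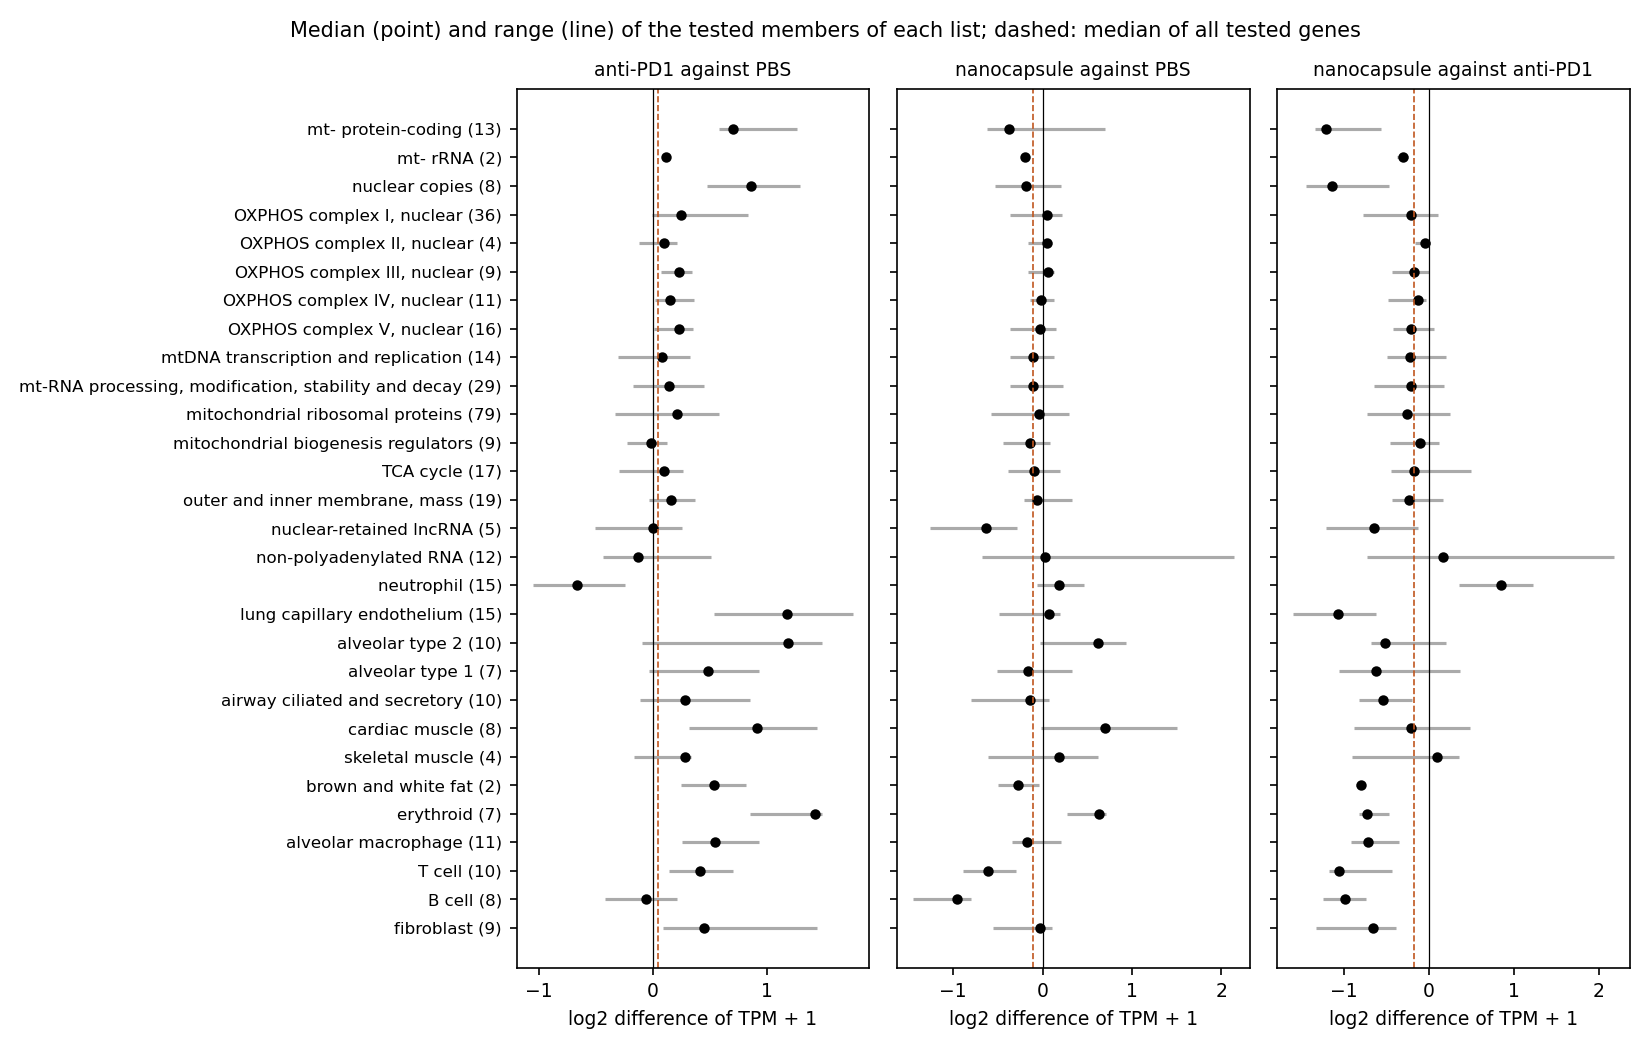
Median (point) and range (line) of log2 differences of TPM + 1 for the tested genes of each list, with their number in brackets, in the 3 comparisons. The dashed line is the median of all tested genes. The protein-coding mitochondrial genes and nuclear copies lie farther from 0 than the lists of nuclear mitochondrial genes for anti-PD1 against PBS and for nanocapsule against anti-PD1, and the neutrophil list lies on the opposite side.

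Several lists of cell type markers differed between the groups, some in the direction of the mitochondrial genes and some not. Of 15 neutrophil genes, 15 were lower in anti-PD1 than in PBS lungs (median -0.67) and 15 higher in nanocapsule than in anti-PD1 lungs (median 0.85), where Elane, neutrophil elastase (1.23, limma adjusted p = 0.0393), and Cd177, a neutrophil surface protein (0.85, limma adjusted p = 0.0448), rose. No gene of the table was called for nanocapsule against anti-PD1 without anti-PD1 1, anti-PD1 2 or nanocapsule 2. The summed TPM of this list was 139910 to 194420 in the PBS, 116800 to 133300 in the anti-PD1 and 178850 to 202510 with the nanocapsule, and PBS 2 had the highest PBS value. Of 15 lung capillary endothelial genes, 15 were higher in anti-PD1 than in PBS lungs (median 1.17) and 15 lower in nanocapsule than in anti-PD1 lungs (median -1.07), with summed TPM of 110.2 to 210.8, 304.6 to 448.2 and 115.4 to 202.9. For nanocapsule against PBS their median was 0.07, and -0.33 without PBS 2. Alveolar type 2 genes were higher in anti-PD1 than in PBS lungs for 9 of 10 genes (median 1.19) and lower in nanocapsule than in anti-PD1 lungs for 9 of 10 (median -0.51). They were also higher in nanocapsule than in PBS lungs for 9 of 10 (median 0.62), where 12 of the 13 protein-coding mitochondrial genes were lower. Their summed TPM was 4389.5, 949.0 and 1336.5 in nanocapsule lungs and 1204.8, 621.6 and 1457.5 in PBS lungs. Only nanocapsule 1 was above all PBS lungs in this sum. Sftpc was at 342.9 to 1021 TPM in PBS, 1256 to 3316 TPM in anti-PD1 and 628.6 to 3410 TPM in nanocapsule lungs. Cardiac muscle genes, another tissue rich in mitochondria, were low throughout, with 8 of 14 genes tested and summed TPM of 8.30 to 18.7, 22.8 to 42.3 and 9.95 to 37.5 and medians of 0.91, 0.69 and -0.21 in the order of the comparisons. Nppa, a defining atrial marker, was at 0 in PBS 1 and at most 2.54 TPM elsewhere. Erythroid genes had summed TPM of 3508 to 13263, 12559 to 25905 and 3907 to 21065, with medians of 1.42, 0.64 and -0.73 over 7 tested genes.

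The lymphocyte lists were low in the nanocapsule lungs. All 10 T cell genes were lower there by value than in PBS lungs (median -0.61) and than in anti-PD1 lungs (median -1.06). Over all tested genes, 71.2% and 70.8% were lower. These 10 genes were higher in anti-PD1 than in PBS lungs (median 0.42). Their summed TPM was 429.1, 386.6 and 876.2 with PBS, 820.7, 374.3 and 1225 with anti-PD1 and 378.9, 368.0 and 327.3 with the nanocapsule. In this sum anti-PD1 2 lay within the nanocapsule range, and PBS 2 lay just above it. All 8 B cell genes were lower with the nanocapsule than with PBS (median -0.96) or anti-PD1 (median -0.98), with a median of -0.06 for anti-PD1 against PBS. All 11 alveolar macrophage genes and all 9 fibroblast genes were higher in anti-PD1 than in PBS lungs (medians 0.54 and 0.45) and lower in nanocapsule than in anti-PD1 lungs (medians -0.71 and -0.66), with medians of -0.17 and -0.03 for nanocapsule against PBS. By median-of-ratios scaling that of fibroblasts turned to 0.09. The 7 alveolar type 1 and 10 airway genes had medians of 0.48 and 0.28 for anti-PD1 against PBS, -0.16 and -0.14 for nanocapsule against PBS, and -0.62 and -0.54 for nanocapsule against anti-PD1. Few muscle and fat genes were tested, 4 of 11 of skeletal muscle (medians 0.28, 0.18 and 0.10) and 2 of 8 of fat (0.53, -0.27 and -0.80). Apart from marker genes, 5 long noncoding RNAs were tested, among them Xist and Gas5. The list was drawn up as RNA kept in the nucleus, and the place of each RNA in the cell was not analysed. All 5 were lower in nanocapsule than in PBS and than in anti-PD1 lungs (medians -0.63 and -0.64). For anti-PD1 against PBS their median was 0.00. No gene of these lists was called. Without PBS 2 some were called for nanocapsule against anti-PD1, beside 960 of all 13168 genes tested in that fit. They were 5 B cell, 3 alveolar macrophage, 1 fibroblast, 1 alveolar type 1, 2 fat and 2 noncoding RNA genes. The part of nuclear RNA and of cell make-up in the mitochondrial difference was not tested.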

How the data were processed

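Gene-level TPM of 9 lung libraries (3 groups of 3) were analysed as deposited by the authors. Salmon appears in the title of the table; DESeq2 and GRCm38 are named, with neither version nor role, in the submitters' processing notes. For strand setting, filters and annotation release the entry is: not given in the sources used here. Columns summed to the same total, so TPM keep no depth.

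A gene was tested if 3 or more of the 9 libraries held it at 1 TPM or above (13248 genes). The model was limma (version 3.58.1, R 4.3.3) on log2(TPM + 1), using a variance trend and 1 spread shared by 3 groups (residual degrees of freedom: 6). Tests had 2 sides, with Benjamini-Hochberg adjustment over all tested genes, and a gene was called below 0.05. Such differences understate changes of genes at low TPM. Shares of TPM were compared by exact permutation tests (scipy 1.17.1). Nuclear copies were found with BLAST 2.17.0 in GENCODE M21 transcripts, which also gave positions and sequences. The limma code was tested on simulated data for 13248 genes that varied independently, unlike genes that share precursors. It recovered 77% of 100 genes changed by 1 on the log2 scale and 92% of 100 changed by 2. There were 17 false calls.

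Named were all protein-coding and rRNA mt- genes, tRNA genes averaging 1 TPM or more, up to 6 nuclear copies averaging 1 TPM or more, and in each companion list its called genes (up to 4) or, with none called, the 2 with the smallest p. Gm28439, the remaining copy of the chromosome 1 block, was added after its values were seen. Not all genes taken by this rule are printed, and the cell type markers Sftpc, Scgb1a1, S100a8, S100a9 and Nppa were named outside it. In the cardiac list the rule took Sln and Tnnt2, and in the alveolar type 2 list Lamp3 and Napsa. Members and lists were chosen with earlier results of these data known. Other pseudocounts, filters, scalings, variance models, blocks and left-out libraries were tried. Adding the copies to the mt- genes was chosen after seeing the data.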

Additional observations from a re-analysis of the deposited data

How the results depend on the processing

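With 3 libraries a group and no known depth, calls depended on few libraries. The signs of the protein-coding medians held under every setting run. The number of genes called over the whole table did not hold. For anti-PD1 against PBS (1 called) it was 0 with a pseudocount of 0.1, by median-of-ratios scaling, without S100a8 and S100a9 and without the variance trend, 2 with a pseudocount of 5, and 0 to 3 without 1 library. For nanocapsule against PBS (1 called) it was 0 without the filter, 2 with a pseudocount of 0.1 and without the trend, 3 after rescaling to genes outside the mitochondrial genome and with the copies added, 4 by median-of-ratios scaling and without S100a8 and S100a9, and 0 to 4 without 1 library. For nanocapsule against anti-PD1 (14 called) it was 3 without the filter, 2 without the trend, 48 after rescaling to genes outside the mitochondrial genome, 79 without S100a8 and S100a9, 476 when only the 2 groups were fitted, and 0 to 960 without 1 library.

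Of the mt- genes, 0 were called for nanocapsule against anti-PD1. The count was 12 when only these 2 groups were fitted (limma adjusted p from 0.0182) and 0 to 12 without 1 library: 12 without PBS 2 (from 0.00988), 2 without PBS 3 and 0 in the other 7 fits. PBS 2 enters this comparison only through the shared spread. In both fits with 12 calls mt-Nd3 was the protein-coding gene not called. The call of Gm28438 was also lost without the filter (adjusted p = 0.120) and without the trend (adjusted p = 0.0808).

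The replicate numbers in the labels are shared by the groups. The correlation of deviations of same-numbered libraries was -0.182 to 0.279 over 9 pairs (median 0.057). Over 18 other pairs it was -0.258 to 0.225 (median -0.028). These ranges overlapped. The highest values were those of PBS 2 with anti-PD1 2 (0.279) and PBS 3 with anti-PD1 3 (0.278). Among same-numbered pairs the lowest was anti-PD1 3 with nanocapsule 3 (-0.182). Whether the numbers mark a step shared by the groups was not tested. With a replicate block, 1 gene was called for anti-PD1 against PBS, 5 for nanocapsule against PBS and 1095 for nanocapsule against anti-PD1, among them 11 mt- genes (adjusted p from 0.0366).

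Of 22 list medians, by median-of-ratios scaling 0, 5 and 2 turned sign in the order of the comparisons, after rescaling to genes outside the mitochondrial genome 2, 0 and 0, without S100a8 and S100a9 0, 1 and 0, and without PBS 2 0, 2 and 0. Among the mt- genes, the copies and the TPM shares, the signs that turned were in nanocapsule against PBS, with mt-Rnr1 in nanocapsule against anti-PD1 as the exception. The log2 difference of mt-Ts1 (0.06) ranged from -0.75 (without nanocapsule 2) to 0.81 over the fits without 1 library, and was -0.32 without PBS 1 or PBS 2. That of mt-Nd3 (0.69) ranged from -0.0405 (without PBS 2) to 1.12 and was -0.40 with the copies added, and that of mt-Rnr1 (-0.15) from -0.31 to 0.11 (without nanocapsule 3). For the copies the range was -0.84 to 0.76 for Gm10222 (0.02), -0.23 to 0.69 for Gm28439 (0.20), -0.51 to 0.069 for Gm10925 (-0.14) and -0.50 to 0.25 for Gm29216 (-0.23). The difference in rRNA share (-0.0286 percentage points) ranged from -0.0475 to 0.00148 (without nanocapsule 3), and that in tRNA share (2.08e-05) from -0.000127 to 0.000148. For nanocapsule against anti-PD1, mt-Rnr1 (-0.24) ranged from -0.40 to 0.0169 (without nanocapsule 3). The causes were not tested.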
